A study of Mus musculus with 6 samples.

Results

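Expression of the acinar enzyme and exocrine genes of the pancreas was followed in islet preparations on 6 arrays. The set holds 34 genes chosen by a list of names. The rule uses no measured value, but earlier results of these data were known when the list was made. Of these, 29 had at least 1 probe set annotated to that gene alone, out of 18193 such genes in all, and for each the probe set with the highest log2 signal, averaged over the arrays, was used. Prss1, Pnlip, Try4, Try5 and Amy2a5 had no probe set of their own and were not analysed here. A gene was tested when its signal exceeded the median of the array on at least 3 of the 6 arrays. This left 27 of the 29 genes, among 11703 genes tested, and Rbpjl and Dnase1 did not pass. The arrays compared 3 islet samples from VhlhKO mice, in which Cre driven by the rat insulin promoter (RIP2-Cre) deletes the floxed Vhlh gene in beta cells, with 3 from control mice. Each genotype had an array numbered 01 at an age of 26 weeks, an array numbered 02 at 20 weeks and an array numbered 03 at 18 weeks. The recorded sex was female for those numbered 02 and male for the others. The alleles carried by the controls and the number of mice per sample were not given in the sources used here. Acinar cells are not the cells in which this driver is labelled to act.

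Acinar cells make up most of the exocrine pancreas and surround the islets. They synthesize digestive enzymes, largely as inactive zymogens, store them in zymogen granules and release them towards the gut when food arrives. Their enzyme genes are switched on by the PTF1 complex, in which the helix-loop-helix factor Ptf1a pairs with a common partner and with Rbpjl, together with the nuclear receptor Nr5a2. Bhlha15, also called Mist1, shapes the secretory apparatus. Isolated islets carry varying amounts of exocrine tissue, and in such bulk samples fewer acinar cells and less enzyme RNA per cell cannot be told apart.

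The PTF1 complex reads an E-box and a nearby TC-box, so the RefSeq promoters (GRCm38.p6, 250 bases before to 50 bases after a start) were searched on both strands for 2 E-boxes, CACCTG and CAGCTG, and for the TC-box letters TTTCCCA. The end of TTTCCCA and the start of an E-box can share the letters CA, which they do in none of the windows printed here. Of the 34 genes 28 had a promoter in the table. One or the other E-box stood in 20 of these 28 (71.4%), against 35.9% of all 27025 genes. TTTCCCA stood in 5 of 28 (17.9%), against 9.16% of all genes. All 5, namely Prss2, Cela2a, Cpa1, Ctrb1 and Cel, also held an E-box, a combination found in 3.11% of all genes. No limit was set on the spacing, order or strand of the elements, so this is not a count of PTF1 sites. In Cela2a the elements began 218 and 85 bases before the start, and in Cpa1 the E-boxes lay after the start. Such matches describe letters and do not show binding. A pair of enzyme promoters with both elements is printed beside that of Bhlha15, the factor whose signal followed a different course, with matches in capitals. The Ctrb1 window (chr8:111690961-111691260, minus strand) holds CAGCTG 205 bases and TTTCCCA 195 bases before the start. The Prss2 window (chr6:41521526-41521825, plus strand) holds CACCTG 169 bases before the start and the TC-box on the reverse strand 111 bases before it. The Bhlha15 window (chr5:144190036-144190335, plus strand) holds CACCTG on the reverse strand 200 and 55 bases before the start and no TTTCCCA. Most enzyme promoters lack TTTCCCA as well, since it stood in 5 of 19. The windows of Gp2, Pla2g1b, Pnliprp1, Ptf1a, Rnase1 and Sycn hold none of these motifs, though their signals had the course of most enzymes given below. The motifs thus do not sort the genes by their course.
Ctrb1: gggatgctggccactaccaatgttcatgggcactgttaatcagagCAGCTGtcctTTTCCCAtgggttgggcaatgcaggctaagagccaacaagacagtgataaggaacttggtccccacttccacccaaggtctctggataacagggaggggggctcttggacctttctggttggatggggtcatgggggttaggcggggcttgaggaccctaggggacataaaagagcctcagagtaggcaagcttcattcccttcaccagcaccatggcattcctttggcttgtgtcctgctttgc
Prss2: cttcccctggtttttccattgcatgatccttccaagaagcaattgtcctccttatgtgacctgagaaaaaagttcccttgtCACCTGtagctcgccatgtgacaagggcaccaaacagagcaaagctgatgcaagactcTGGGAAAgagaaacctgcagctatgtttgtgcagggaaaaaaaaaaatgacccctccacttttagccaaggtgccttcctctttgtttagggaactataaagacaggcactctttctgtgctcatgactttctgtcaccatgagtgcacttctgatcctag
Bhlha15: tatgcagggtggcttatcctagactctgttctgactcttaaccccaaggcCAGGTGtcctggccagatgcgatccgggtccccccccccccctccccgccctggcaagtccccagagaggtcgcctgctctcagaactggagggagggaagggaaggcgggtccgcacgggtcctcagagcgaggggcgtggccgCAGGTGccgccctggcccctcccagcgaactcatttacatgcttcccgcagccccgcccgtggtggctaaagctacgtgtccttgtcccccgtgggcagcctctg

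The values are MAS5 signals, which measure brightness per probe set on a linear scale, so levels of different genes are not set against each other. The 2% trimmed mean was 500.003 on every array, and array medians lay between 101.9 and 122.7. Islet hormone genes were bright on every array: Ins2 lay between 11545 and 31477 in knockouts and between 14810 and 18232 in controls, and Gcg between 31892 and 55684 in knockouts and between 41423 and 44117 in controls. Sex-linked transcripts went against 1 label in each genotype. Xist, the RNA of the inactive X chromosome, was at 187, 13783 and 13694 on knockouts 01, 02 and 03, against 163, 11319 and 16381 on controls 01, 02 and 03. Y-linked Eif2s3y was at 1801, 12.3 and 21.5 in knockouts, against 1646, 9.92 and 2.77 in controls. Both arrays numbered 03, recorded as male, thus had the transcripts of the arrays recorded as female. Number, age and any shared handling cannot be told apart in this design. By these transcripts the arrays numbered 01 also differed in sex from the others. Knockout 03 stood apart in the exocrine genes, and the results are therefore given with and without it.

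Exocrine transcripts differed far more between arrays of 1 genotype than between genotypes. The mean log2 signal of the 16 tested digestive enzymes was 14.85, 15.57 and 9.12 on knockouts 01, 02 and 03, against 14.75, 15.20 and 12.63 on controls 01, 02 and 03. Both genotypes thus had their highest value on the array numbered 02 and their lowest on the array numbered 03, with knockout 03 below all others. The order 02 over 01 over 03 held in both genotypes for 25 of the 27 tested members, against 5.97% of all tested genes. The exceptions were Bhlha15 and Gatm. Knockout 02 was the highest array for 26 members, against 16.6% of all tested genes, and knockout 03 was the lowest for 25, against 15.7%. The standard deviation of log2 signals within genotypes had a median of 2.70 over the 27 members, against 0.43 over all tested genes, and 24 members were among the 118 genes of largest such spread.

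**Figure D1:**
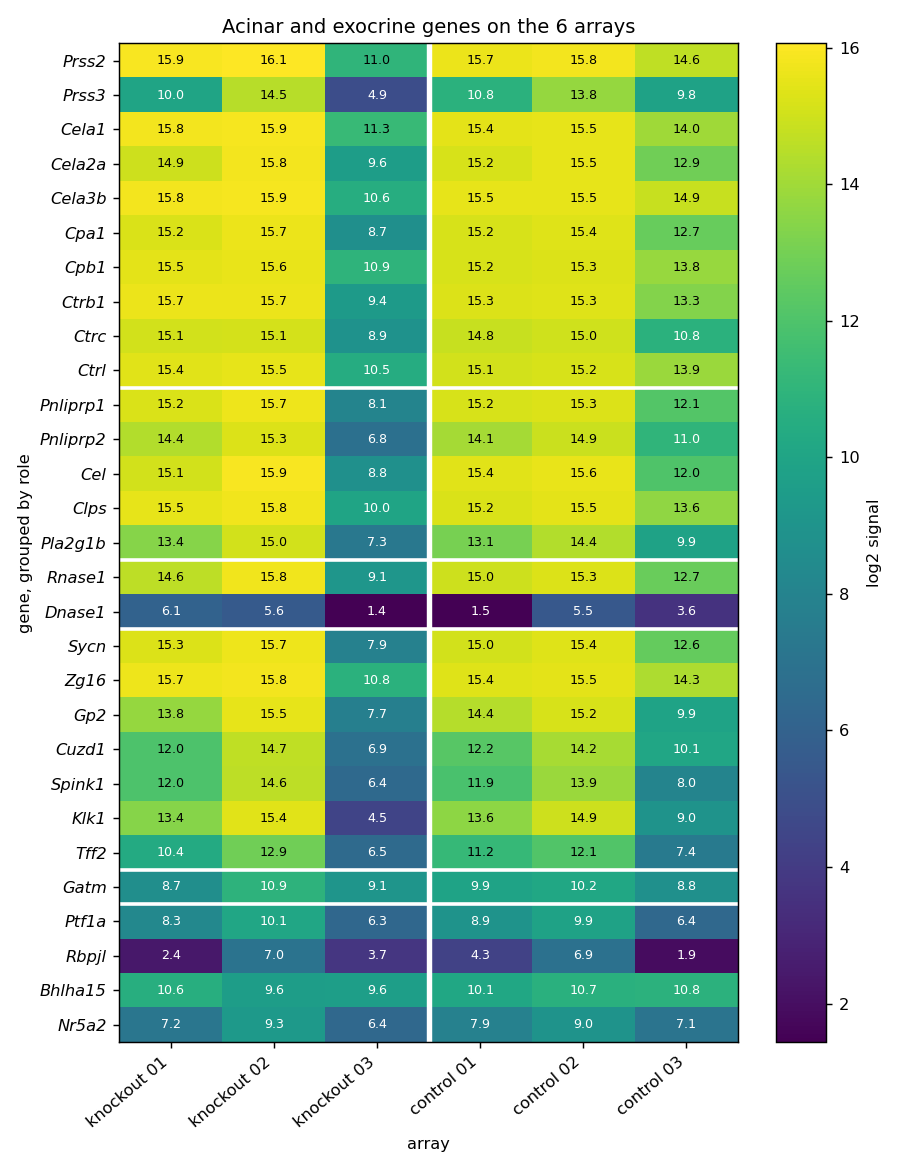
Log2 signal of the 29 measured acinar and exocrine genes (rows, separated by role) on the 3 knockout and 3 control arrays (columns), with each value printed in its cell and colour running from dark (low) to yellow (high). The columns numbered 03 are darker than the others for most rows, knockout 03 most of all, while the row of Bhlha15 changes little.

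Among the proteases, all 10 tested members followed this order. Prss2, an anionic trypsinogen, had signals of 62589, 68564 and 2069 on knockouts 01, 02 and 03, against 51594, 56413 and 25656 on controls 01, 02 and 03. Cpa1, a carboxypeptidase, had 38915, 51646 and 426 in knockouts, against 36712, 42178 and 6528 in controls. Knockout 03 thus lay 91.4-fold below knockout 01 for Cpa1, while control 03 lay 5.62-fold below control 01. The elastase Cela1 had the smallest range of the proteases, with 56247, 60347 and 2503 in knockouts, against 44382, 47833 and 16160 in controls. Prss3, another trypsinogen, had the largest range, with 1002, 22881 and 29.9 in knockouts, against 1734, 13820 and 920 in controls. Its arrays numbered 01 and 03 were both far below those numbered 02 in both genotypes. On knockout 03 it was below the array median, so the size of its range is uncertain. Ctrc, a chymotrypsin that activates and degrades other zymogens, had 34747, 36007 and 484 in knockouts, against 29345, 32561 and 1735 in controls. Cela3b, an elastase, had 57609, 59457 and 1509 in knockouts, against 46259, 46572 and 29621 in controls. On this probe set control 03 stayed closest to the other controls, and knockout 03 was again far below. The other Cela3b probe sets fell further, to between 2078 and 11584 on control 03, against between 29176 and 36183 on control 01. Cela2a, Cpb1, Ctrb1 and Ctrl, an elastase, a carboxypeptidase and chymotrypsins, reached between 46504 and 58204 on knockout 02 and between 669 and 1945 on knockout 03, against between 36423 and 47309 on control 02 and between 7586 and 14984 on control 03.

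The 5 tested lipid-digesting genes had log2 ranges between 5.77 and 8.46 over the 6 arrays, and the 10 proteases between 4.59 and 9.58. Pnliprp2, a lipase-related protein, had signals of 21342, 40371 and 115 on knockouts 01, 02 and 03, against 17658, 30564 and 2029 on controls 01, 02 and 03. Pla2g1b, the secreted pancreatic phospholipase A2, had 10784, 33878 and 158 in knockouts, against 8508, 21522 and 950 in controls. Clps, the colipase that anchors pancreatic lipase to fat droplets, had 46805, 56118 and 1026 in knockouts, against 38514, 44921 and 12644 in controls. Each gene was lowest on knockout 03 and next lowest on control 03. Pnliprp1 and the bile salt-activated lipase Cel showed the same order, with log2 ranges of 7.62 and 7.17 over the 6 arrays. Of the nucleases, Rnase1, pancreatic ribonuclease, had 25327, 55909 and 555 in knockouts, against 31844, 39463 and 6697 in controls. Dnase1 was below the array median on all arrays, with 66.3, 47.9 and 2.71 in knockouts, against 2.81, 45.0 and 12 in controls.

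The 7 other secreted and granule proteins had log2 ranges between 5.04 and 10.95. Klk1, tissue kallikrein, had signals of 11042, 43310 and 21.9 on knockouts 01, 02 and 03, against 12470, 31485 and 505 on controls 01, 02 and 03. Its log2 range of 10.95 was the largest of all 11703 tested genes, but its signal on knockout 03 was below that array's median of 101.9. The size of this range is therefore uncertain. Spink1, the trypsin inhibitor that is packed with the zymogens, had 3998, 25028 and 85.8 in knockouts, against 3700, 15010 and 262 in controls. Gp2, the main membrane protein of zymogen granules, had 13992, 47750 and 212 in knockouts, against 21798, 37034 and 968 in controls. Tff2, a trefoil peptide, had 1331, 7645 and 89.3 in knockouts, against 2417, 4304 and 170 in controls. For these genes the arrays numbered 01 lay between those numbered 02 and 03. Spink1 and Tff2 were also below the array median on knockout 03. Zg16, a zymogen granule lectin, had the smallest range of the group, with 52152, 58037 and 1767 in knockouts, against 41906, 45112 and 19746 in controls. Sycn, a protein on the inner face of the granule membrane, and Cuzd1 had log2 ranges of 7.83 and 7.78. Gatm, which makes the creatine precursor guanidinoacetate and is not a secreted enzyme, moved less, with 404, 1890 and 537 in knockouts, against 986, 1150 and 443 in controls. Its lowest array was knockout 01.

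The acinar transcription factors did not all follow the enzymes. Ptf1a had signals of 314, 1077 and 79.4 on knockouts 01, 02 and 03, against 494, 934 and 83.7 on controls 01, 02 and 03. Both signals numbered 03 were below their array's median, where a further difference between them cannot be read. The brightest Nr5a2 probe set had 147, 644 and 84.2 in knockouts, against 231, 505 and 136 in controls, the same order over a log2 range of 2.93. Rbpjl was above the array median on the arrays numbered 02 alone, with 5.27, 128 and 13.3 in knockouts, against 19.7, 118 and 3.82 in controls. It was only slightly above, as the medians were 122.7 on knockout 02 and 107.5 on control 02. A dimmer Rbpjl probe set lay between 11.9 and 14.4 in knockouts and between 15.6 and 45.5 in controls. It was below the median on every array and did not have its highest signals on the arrays numbered 02. Bhlha15 had 1559, 761 and 785 in knockouts, against 1119, 1697 and 1827 in controls. Its signal was as high on control 03, where enzymes were low, as on control 02, where they were high. A dimmer Bhlha15 probe set lay between 105 and 160 in knockouts and between 71.6 and 94.0 in controls. Of 2 further Nr5a2 probe sets above the median on most arrays, 1 followed the enzyme order and 1 did not, with 186, 143 and 86.9 in knockouts against 162, 150 and 289 in controls. The within-genotype standard deviation was 0.49 for Bhlha15, which was above the array median on all 6 arrays, against a median of 2.69 for the 16 tested enzymes. It was 1.84 for Ptf1a and 1.27 for Nr5a2. Ptf1a was below the array median on both arrays numbered 03 and Nr5a2 on knockout 03, so their spreads cannot be set against that of the enzymes.

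**Figure D2:**
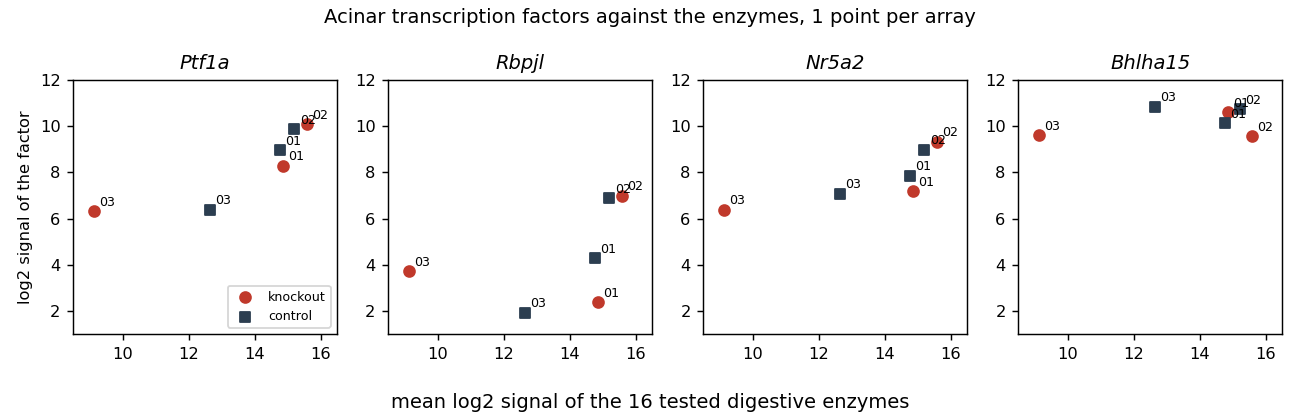
Log2 signal of 4 acinar transcription factors (vertical axis) against the mean log2 signal of the 16 tested digestive enzymes (horizontal axis), 1 point per array, with knockouts as red circles, controls as dark squares and the array number beside each point. On the probe sets used, Ptf1a, Rbpjl and Nr5a2 are highest on both arrays numbered 02, while Bhlha15 shows no such order.

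Whether arrays of the same number resembled each other was tested for every gene with limma, as an F test over the 3 numbers with genotype in the model. Of all 11703 genes, 26 passed at an adjusted p under 0.05 (0.222%), and 6 of the 27 members were among them. These were Spink1 (adjusted p 0.0108), Ctrc, Gp2 and Tff2 (each 0.0111), Ptf1a (0.0275) and Pla2g1b (0.0429). The call of Pla2g1b was lost under a stricter filter on dim probe sets, after averaging its probe sets, without _x_at probe sets and without knockout 01. Klk1 was just outside the threshold (0.0501). At an unadjusted p under 0.05 there were 26 of 27 members, all but Bhlha15 (unadjusted p 0.885), against 16.2% of all genes. The calls rest on limma's intensity-dependent variance prior. Without that trend 1 gene and 0 members passed, with 24 members at an unadjusted p under 0.05. Leaving out 1 array moved the count in either direction. It was 5 members without knockout 01 (0.444% of all genes), 19 without knockout 02 (0.812%) and 23 without knockout 03 (1.02%). It was 7 without control 01 (0.641%), 23 without control 02 (0.897%) and 24 without control 03 (0.931%).

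**Figure D3:**
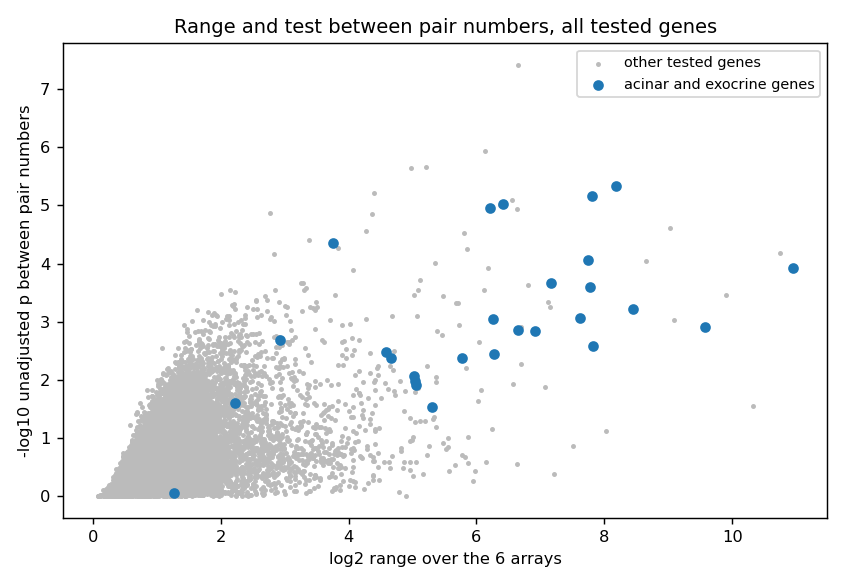
Log2 range over the 6 arrays (horizontal axis) and -log10 of the unadjusted limma p between pair numbers (vertical axis) for the 11703 tested genes in grey, with the 27 acinar and exocrine genes in blue. Most blue points lie at ranges above 5, where 21 of the 95 genes belong to the set, and Bhlha15 lies at the lower left.

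Between genotypes, 0 of the 27 members passed in limma, against 0.0171% of all genes (2 of 11703). No member reached an unadjusted p under 0.05, where 300 of all genes did, and every member had an adjusted p of 0.9999. All 27 log2 differences, knockout minus control, were below 0, with a median of -0.99, against a median of 0.00 over all tested genes. The standard errors, with a median of 1.47 for the 16 enzymes, exceeded most of these differences. Bhlha15 had the lowest unadjusted p of the members (0.112), with mean log2 signals of 9.93 ± 0.59 in knockouts and 10.56 ± 0.38 in controls (SD, n = 3 each) and a log2 difference of -0.63 (95% interval from -1.45 to 0.18). Cela3b, Prss2 and Prss3 had the next lowest, at 0.334, 0.391 and 0.426. Prss2 averaged 14.34 ± 2.88 in knockouts and 15.36 ± 0.62 in controls, a log2 difference of -1.02 (95% interval from -3.59 to 1.54). With the number as a replicate block the median standard error of the enzymes was 0.68, and again 0 members passed, against 0.0171% of all genes, with adjusted p 0.995 throughout.

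The lower mean of the enzymes in knockouts came mainly from the pair numbered 03. In that pair all 16 tested enzymes were lower in the knockout, while 5959 of all 11703 tested genes were higher. The log2 differences of the enzymes lay between -4.94 and -1.84 with a median of -3.61. The value of -4.94 was that of Prss3, which was below the array median on knockout 03. In the pair numbered 02, 6011 of all 11703 tested genes were higher in the knockout. All 16 enzymes were, by between 0.15 and 0.73 with a median of 0.34. Their signals on knockout 02 lay between 22881 and 68564. The brightest signal of any probe set was 76826 on that array, against 60472 on control 02. The largest differences were those of the dimmest enzymes on that array, Prss3 (0.73) and Pla2g1b (0.65). Of the bright hormone genes, Gcg, Ppy, Pyy, Ins2 and Iapp were also higher on knockout 02, and Sst was lower. Gcg had 55684 on knockout 02 against 44117 on control 02, Ppy 52007 against 38111, and Sst 20584 against 21615. The part of the scale's upper end in the difference of this pair was not tested. In the pair numbered 01, 12 of the 16 enzymes were higher in the knockout, with a median of 0.27, as were 5971 of all 11703 tested genes. Without knockout 03, 26 of the 27 members had a positive difference and the median was 0.89. Without both arrays numbered 03, 20 were positive and the median was 0.19. Not every member owed its lower mean to the pair numbered 03. Gatm had log2 differences of -1.29, 0.72 and 0.28 in the pairs numbered 01, 02 and 03. Ptf1a had -0.65, 0.21 and -0.08, and Bhlha15 had 0.48, -1.16 and -1.22. For the transcription factors the log2 difference in the pair numbered 03 was -0.08 for Ptf1a, -0.69 for Nr5a2 and -1.22 for Bhlha15. Ptf1a was below the array median on both of these arrays and Nr5a2 on knockout 03, so their differences cannot be set against those of the enzymes. With 1 array per genotype and number, a difference between pairs could not be tested.

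**Figure D4:**
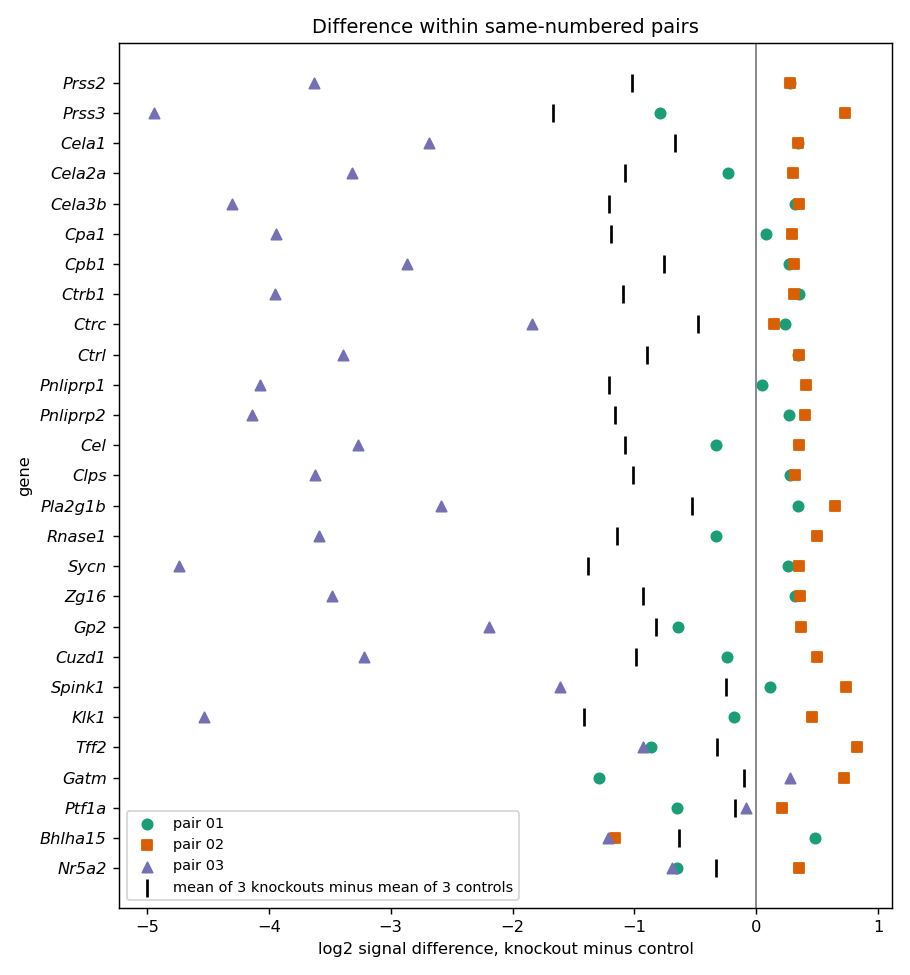
Log2 signal difference, knockout minus control, within the pairs numbered 01 (circles), 02 (squares) and 03 (triangles) for the 27 tested genes, with a bar at the difference of the genotype means. Triangles of the enzymes lie between -4.94 and -1.84. The squares of all 16 enzymes lie above 0, from signals between 22881 and 68564 on knockout 02.

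Steps between numbers were also read by the brightness of the probe set. Among the probe sets of the enzymes and granule proteins, Gatm and the factors left out, that were bright enough to test, those whose highest signal reached 30000, a limit set after the values were seen, numbered 31. Their log2 step, number 02 minus number 01, had a median of 0.35 and a range of 0.02 to 1.72. For the 7 dimmer ones the median was 2.07 and the range -0.07 to 3.75, so the classes overlapped. The step of number 01 minus number 03 had the opposite order, with medians of 4.5 for the bright and 3.62 for the dimmer probe sets. The brightest signal on any probe set was 75380, 76826 and 40917 on knockouts 01, 02 and 03, against 55556, 60472 and 61834 on controls 01, 02 and 03. Probe sets of the same gene also differed. The 4 for Cela3b had log2 ranges between 5.30 and 6.89 and the 3 for Zg16 between 5.04 and 9.24, and for both genes the probe set used was the one of smallest range. The 4 for Klk1 ranged between 3.32 and 10.95. Klk1 belongs to a large family of near-identical kallikrein genes, and 1 of its probe sets had 3283, 5597 and 220 in knockouts and 6448, 3419 and 5474 in controls. The part of signal compression near the top of the scale in these steps was not tested.

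**Figure D5:**
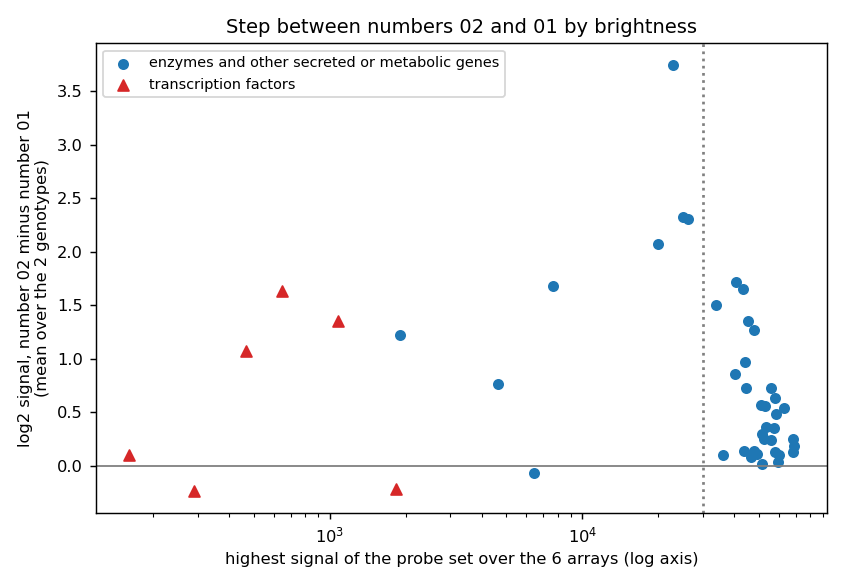
Log2 step between the arrays numbered 02 and 01, averaged over the 2 genotypes (vertical axis), against the highest signal of each probe set of the set's genes (horizontal log axis), for probe sets above the array median on at least 3 arrays. Probe sets right of the dotted line at 30000 have a median step of 0.35. The blue points include Gatm, and the transcription factors are red triangles.

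Other acinar genes were read from a list of 25, of which 16 were tested. Between pair numbers 7 of the 16 passed, against 0.222% of all genes, and 11 had the order 02 over 01 over 03 in both genotypes, against 5.97%. Cckar, the receptor through which cholecystokinin stimulates acinar secretion, had signals of 505, 2466 and 66.6 on knockouts 01, 02 and 03, against 567, 2281 and 98.6 on controls 01, 02 and 03 (adjusted p 0.00674). Erp27, a protein of the endoplasmic reticulum, had 464, 2263 and 32.1 in knockouts, against 773, 1936 and 36.9 in controls (adjusted p 0.00673). Both genes were below the array median on the arrays numbered 03. The others that passed were Amy1, an amylase, Pdia2, a pancreatic protein disulfide isomerase, Tmed6, Reg2 and Dmbt1. Xbp1, Foxa2 and Gata6, factors that islet cells also use, did not pass, with log2 ranges of 0.69, 1.42 and 1.06. Between genotypes 0 of the 16 passed, against 0.0171% of all genes, with 5 higher and 11 lower in the knockout. Of the genes outside the set with a log2 range of at least 3, 478 in number, 19 had a Pearson correlation above 0.95 with the mean of the enzymes over the 6 arrays, which share their scaling. The highest were Reg1 (0.9906), a regenerating protein of acinar cells, Prss32 (0.9902), a serine protease, Tmed11 (0.9898), Dmbt1 (0.9884), 2210010C04Rik (0.9758) and Muc1 (0.9705), a mucin of duct and acinar cells, followed by Tmem44, Tmem178b, Gfap and 1810010K12Rik.

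Markers of other cells were read on the same arrays. The summed signal of the 8 measured beta cell markers was 161339, 161644 and 88939 on knockouts 01, 02 and 03, against 156039, 141520 and 110377 on controls 01, 02 and 03, but its members did not move as one. Iapp and G6pc2, both bright, were lowest on the array numbered 03 in both genotypes, whereas Ins2 was lowest on knockout 03 and highest on control 03 within its genotype. All 8 were above the array median on every array. That of the 8 fibroblast and stellate markers was 6003, 9260 and 22141 in knockouts, against 3450, 7142 and 3875 in controls, with its highest value on knockout 03. That of the 10 measured duct markers lay between 7669 and 10137 in knockouts and between 7304 and 10100 in controls. The sum had the order 02 over 01 over 03 in both genotypes, but its members did not move as one. Krt7, a duct keratin, Muc1 and Cftr were lowest on the array numbered 03 in both genotypes, whereas Tspan8, Car2 and Slc4a4 were highest there. Cftr was below the array median on every array, and Muc1 on both arrays numbered 03. Krt7 had 5026, 4748 and 2117 in knockouts, against 5104, 6056 and 2594 in controls. Tspan8 had 2150, 2581 and 3711, against 1821, 2222 and 3028. Of the 8 tested duct markers 0 passed between numbers, against 0.222% of all genes, the lowest adjusted limma p being 0.157 for Krt7. The measured alpha, delta and PP cell markers, endothelial markers, leukocyte markers and neural markers had no member that passed between numbers. With so small a share of all genes passing, this does not set such short lists apart from other genes. The part of these cells in the exocrine result was not tested.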

How the data were processed

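RNA of isolated mouse islets was measured on 1 Affymetrix array per sample, 6 in all. The authors deposited one signal intensity per probe set and array, and the submitters' processing notes name GCOS 1.4 and MAS5. The values themselves show a common scaling of the arrays, and no detection calls were used here. RNA was extracted with a Stratagene kit per the labels. Of 45101 probe sets 64 controls were left out. Of the rest, 34945 had 1 symbol, 932 several and 9160 none. Symbols were checked by Entrez identifier against RefSeq (GRCm38.p6), which matched 34741 and changed 0.

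Log2 signals, with nothing added, were tested with limma 3.58.1 under R 4.3.3, as linear models with variances moderated along signal intensity, two-sided, with Benjamini-Hochberg adjustment over all genes tested and a threshold of 0.05. The scripts were tested on simulated data. P-values measure the spread between these samples, which the labels do not say to be separate mice, and the number of arrays limits the precision. The members and lists were chosen with earlier results of these data known. Named genes are all members, given on every array for the factors, the widest and narrowest genes of each role and those of lowest p, and the 10 genes outside the set most like the enzyme mean.

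Deviations from genotype means over the tested genes correlated at 0.137, 0.413 and 0.423 within the pairs numbered 01, 02 and 03, all above 0.1, so the numbers were taken to pair the samples. Knockout 02 with control 01 reached 0.141, slightly above the 0.137 within number 01, so the pairing was least clear for that number. The main test between genotypes used no replicate block. Alternatives were the replicate block, quantile normalization, a pseudocount of 32, other filters, other choices of probe set, no trend, and leaving out arrays.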

Additional observations from a re-analysis of the deposited data

Results flagged for a closer look

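The difference between genotypes ran in opposite directions in different pairs. The median log2 difference of the 16 tested enzymes, knockout minus control, was 0.34 in the pair numbered 02, where all 16 were higher in the knockout. It was -3.61 in the pair numbered 03, where all 16 were lower. Of all 11703 tested genes, 6011 were higher in the knockout in the pair numbered 02 and 5959 in the pair numbered 03. The enzyme signals on knockout 02 lay between 22881 and 68564. The brightest signal of any probe set was 76826 on that array, against 60472 on control 02. The part of the scale's upper end in the difference was not tested. The difference between pairs was not tested either, since each pair holds 1 array per genotype.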

How the results depend on the processing

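With the pair number as a replicate block 2 genes and 0 members passed between genotypes, as without it, and no call of a member changed. Between pair numbers, 26 genes and 6 members passed. With no filter on dim probe sets 41 genes passed, after averaging all probe sets per gene 50, and without the intensity trend 1 gene and 0 members. Leaving out single arrays or both arrays of a number gave between 0 and 5 genes between genotypes, against 2 with all arrays. Leaving out single arrays gave between 52 and 119 genes and between 5 and 24 members between numbers. The log2 difference between genotypes changed sign for 15 named members when arrays were left out. It then lay between -1.18 and 0.78 for Ptf1a, -1.18 and 0.29 for Nr5a2, -4.02 and 0.77 for Prss3, -2.41 and 1.05 for Cpa1, -1.45 and 0.84 for Cela1, -2.72 and 1.51 for Pnliprp2, -2.10 and 1.78 for Pla2g1b, and -2.01 and 0.87 for Clps. It lay between -2.44 and 0.89 for Rnase1, -3.57 and 1.91 for Klk1, -2.06 and 2.03 for Spink1, -1.80 and 0.72 for Zg16, -0.77 and 0.50 for Gatm, -2.10 and 0.55 for Cela3b, and -1.89 and 0.64 for Prss2. That of Bhlha15 lay between -1.19 and -0.34 and kept its sign, and it was -0.03 after averaging both its probe sets. Causes were not tested. With 3 arrays per genotype, differences within the wide spread of these genes were not detectable. Signals near the top of the scale, and those under the array median, limit the fold changes that can be read.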

Other observations

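Of the 26 genes that passed between pair numbers, 13 belonged to neither acinar list. They are named here after their values were seen. Xist, described above, had the lowest adjusted p of all genes in this limma test (0.000447). Reg3a, Reg3d and the kallikrein Klk1b5 had their highest signals on both arrays numbered 02, as did Gnmt, a glycine methyltransferase, Hsd17b13, Serpinb1a, Galnt18 and Homer2. Gnmt had 963, 5132 and 243 on knockouts 01, 02 and 03, against 1032, 4142 and 332 on controls 01, 02 and 03. Nupr1, a stress-induced nuclear protein, had 15711, 17821 and 2261 in knockouts, against 11267, 16248 and 864 in controls.

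Socs3, a feedback inhibitor of cytokine signalling, was highest on both arrays numbered 03, with 878, 524 and 7011 in knockouts, against 493, 599 and 3481 in controls. The nuclear RNA Malat1 was lowest there, with 42359, 39969 and 9312 in knockouts, against 32055, 34865 and 6170 in controls. The imprinted RNA Rian had the order of the exocrine genes, 02 over 01 over 03, with 1606, 9064 and 1483 in knockouts, against 1905, 9751 and 932 in controls. These values are given as a description.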
